A study of Mus musculus with 20 samples.

Results

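S100a8 and 9 other genes of neutrophils, most of them granule genes, were followed through the livers of phenobarbital-treated and vehicle-treated mice. The members were every probe set that the platform annotation gives to S100a8, S100a9, Ngp, Camp, Ltf, Elane, Mpo, Cxcr2, Retnlg or Mmp8. Of these 10 genes 9 were measured, each by 1 probe set, out of 18193 genes measured in all. No probe set was listed for Retnlg, which was not analysed here. S100a8 was chosen because its mean difference between treated and vehicle livers was already known to be large, and the other genes because neutrophils make them beside S100a8, so the differences between treated and vehicle livers below are given as a description, with no p-value for a member.

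The samples were liver RNA of 20 male CD-1 mice, an outbred stock, each measured on 1 Affymetrix 3' expression array. The treated groups received phenobarbital sodium by mouth at 80 mg/kg/day for 28 days (PB 28d) or 90 days (PB 90d), in a volume of 10 mL/kg, and the control groups (CMC 28d and CMC 90d) received only the vehicle, 0.5% methylcellulose 15, on the same days. Each group held 5 mice, killed on the day after the last dose, and the left lateral lobe was taken. The age of the mice is not given in the sources used here, and the 90-day mice had been dosed for longer, so duration and age cannot be told apart. The replicates were separate mice, and values are log2 intensities after RMA.

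S100A8 and S100A9 are small calcium-binding proteins that join into calprotectin, which neutrophils store in their cytosol in large amounts and release to bind zinc and manganese and to signal to other cells. The granules of neutrophils are filled while the cells mature in the bone marrow, first with elastase and myeloperoxidase, then with lactoferrin, cathelicidin and Ngp, and last with gelatinase. Normal liver holds few mature neutrophils beside its resident macrophages. In hepatocytes phenobarbital acts through the constitutive androstane receptor, a nuclear receptor that raises P450 enzymes of the Cyp2b and Cyp2c families.

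S100a8 and S100a9 lie next to each other on mouse chromosome 3, with 0 coding genes between them in the RefSeq annotation of GRCm38.p6. Their promoters are shown because the difference between these neighbours on the same array was larger in treated than in vehicle livers. Each window runs from 250 bases before to 50 bases after the annotated start. All 10 members were matched to RefSeq promoters of GRCm38.p6 by symbol. Capitals mark matches to TATAAA, the core of the TATA box, or to TTGCNNAA, a form of the site bound by C/EBP factors, both searched on both strands. The S100a8 window is chr3:90668821-90669120 on the plus strand and the S100a9 window is chr3:90695672-90695971 on the minus strand.
S100a8: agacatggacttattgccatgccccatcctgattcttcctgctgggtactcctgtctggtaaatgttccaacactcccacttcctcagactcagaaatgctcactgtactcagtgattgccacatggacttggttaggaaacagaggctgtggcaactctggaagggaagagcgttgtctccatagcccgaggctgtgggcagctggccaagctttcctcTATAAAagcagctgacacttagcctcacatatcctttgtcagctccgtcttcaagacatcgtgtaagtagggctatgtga
S100a9: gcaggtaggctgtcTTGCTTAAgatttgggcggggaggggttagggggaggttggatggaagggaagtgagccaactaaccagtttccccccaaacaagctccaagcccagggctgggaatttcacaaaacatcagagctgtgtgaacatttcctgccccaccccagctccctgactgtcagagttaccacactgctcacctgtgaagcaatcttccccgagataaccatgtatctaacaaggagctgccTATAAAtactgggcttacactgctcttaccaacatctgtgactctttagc
The TATAAA match began at position -30 from the annotated start in S100a8 and at 0 in S100a9. A TTGCNNAA match was found in S100a9, at -236, and none in the S100a8 window. Of all 32851 promoters of this length 13.6% held TATAAA and 10.8% held TTGCNNAA. The letters AGGTCA and AGTTCA, forms of the half-site bound by nuclear receptors, are not in either window, and 16.3% and 14% of all promoters held them. The letters TTCNNNGAA, a form of the STAT site, are not in either window, and 8.3% of all promoters held them. These searches describe the letters only and say nothing of the factors.

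Hepatocyte markers were bright on all arrays, but not equally so. The mean log2 intensity of 13 hepatocyte markers lay between 12.87 and 14.09 on the treated arrays and between 13.58 and 14.12 on the vehicle arrays. The lowest was PB 28d replicate 5, at 12.87 against 13.85 to 13.89 in the rest of its group. PB 90d replicate 3 had 13.27, against 13.65 to 14.09 in the rest of its group. PB 28d replicate 5 and PB 90d replicate 3 stood apart at the low end of the first principal component, which held 55.6% of the variance (scores -107.9 and -65.2, against -39.8 for the next array). The 25th percentile of an array served as its background and lay between 3.96 and 4.26. Genes above it on 5 or more arrays were tested, 16054 in number, and all 9 measured members passed.

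S100a8 was high in 8 of the 10 treated livers and low in all 10 vehicle livers. At 28 days its log2 intensity was 11.73, 12.46, 12.79, 11.95 and 7.80 in the treated livers (replicates 1 to 5), against 6.13, 5.64, 6.59, 5.97 and 7.10 in the vehicle livers. The groups did not overlap, but replicate 5 of the treated group lay close to the highest vehicle liver. At 90 days it was 13.21, 12.76, 12.97, 13.03 and 5.42 in the treated livers, against 5.64, 5.01, 4.99, 5.08 and 5.25 in the vehicle livers. Here the groups overlapped, because replicate 5 of the treated group lay within the vehicle range, while the other 4 treated livers lay above every vehicle liver. The mean difference was 5.06 ± 1.13 log2 units at 28 days (model SE, n = 5 per group; 33.3-fold) and 6.28 ± 1.13 at 90 days (77.8-fold). Without both treated arrays numbered 5 it was 5.95 and 7.80.

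S100a8 was measured by only 1 probe set. Its _s_at suffix marks a class whose probes can match more than 1 transcript. Whether it binds other transcripts was not tested, and without probe sets of this kind there was no value for S100a8. The spread within the treated groups was among the widest of all genes. The SD of S100a8 was 2.03 log2 units in PB 28d livers, which ranked 6 from the top among 16054 genes, and 3.39 in PB 90d livers, which ranked 1. It was 0.57 in CMC 28d and 0.27 in CMC 90d livers, at rank 1422 and 3833. The low livers carried the number 5 in both treated groups.

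**Figure D1:**
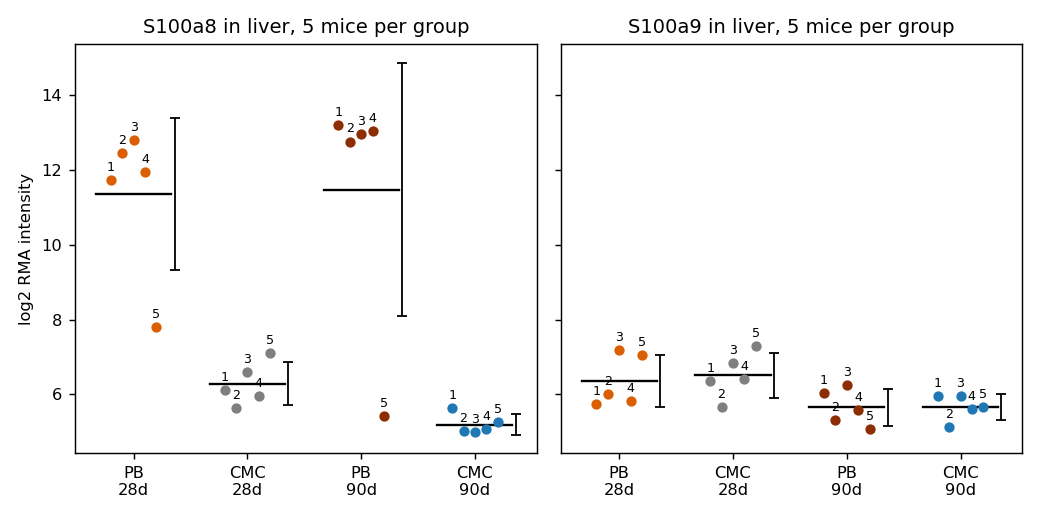
Log2 RMA intensity of S100a8 (left) and S100a9 (right) in each liver of the 4 groups. Points are mice with their replicate number, lines are group means and error bars are SD (n = 5). S100a8 lies above 11.7 in 8 treated livers and at 7.80 and 5.42 in the treated livers numbered 5, while S100a9 lies between 5.08 and 7.29 throughout.

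S100a9, the partner of S100a8 in calprotectin, did not show this pattern. At 28 days its log2 intensity was 5.74, 6.0, 7.18, 5.83 and 7.04 in the treated livers, against 6.35, 5.67, 6.84, 6.42 and 7.29 in the vehicle livers. All treated livers lay within the vehicle range. At 90 days it was 6.04, 5.31, 6.26, 5.59 and 5.08 in the treated livers, against 5.96, 5.12, 5.97, 5.61 and 5.65 in the vehicle livers, and the groups overlapped widely. The mean difference was -0.15 ± 0.32 log2 units at 28 days and -0.01 ± 0.32 at 90 days, and across the settings tried the 90-day value ran from -0.16 to 0.14.

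The distance between both genes on the same array shows the separation directly. S100a8 minus S100a9 was 6.0, 6.46, 5.61, 6.12 and 0.75 log2 units in the PB 28d livers, against values between -0.45 and -0.03 in the CMC 28d livers. It was 7.17, 7.44, 6.70, 7.44 and 0.34 in the PB 90d livers, against values between -0.98 and -0.11 in the CMC 90d livers. On this distance all 10 treated livers, those numbered 5 included, lay above the vehicle range of their duration. This does not mean that S100a8 was raised in each. In PB 90d replicate 5 S100a8 (5.42) lay within the vehicle range, and S100a9 (5.08) was the lowest of all livers. The distance holds the S100a8 values that the choice of members rested on, and other pairs of genes were not examined for it. Since each probe set has its own brightness, only the change of this distance between arrays is meaningful, not its size on 1 array.

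The granule proteins of the first stage of neutrophil maturation showed small differences. Elane encodes neutrophil elastase, a serine protease. Its log2 intensity lay between 4.96 and 5.45 in PB 28d livers (median 5.41) and between 4.94 and 5.24 in CMC 28d livers (median 5.05), and the difference was 0.20 ± 0.12. At 90 days it lay between 4.85 and 5.45 in the treated (median 5.29) and between 5.01 and 5.19 in the vehicle livers (median 5.07), a difference of 0.12 ± 0.12. Mpo encodes myeloperoxidase, which makes hypochlorous acid. Its difference was 0.20 ± 0.14 at 28 days (5.15 ± 0.18 in treated and 4.94 ± 0.23 in vehicle livers, SD) and -0.09 ± 0.14 at 90 days (4.68 ± 0.26 and 4.77 ± 0.23). On centring each array at its 75th percentile the 90-day value of Mpo was 0.00. For both genes the treated and vehicle livers overlapped at each duration.

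Of the later granule genes, Mmp8 had groups without overlap at 28 days, and the others overlapped at both durations. Ngp, a cathelicidin-related granule protein, had 4.53, 4.94, 4.68, 4.90 and 5.29 in the PB 28d livers, with the highest value in replicate 5, where S100a8 was low; the CMC 28d livers lay between 4.38 and 5.00. In the PB 90d livers it had 4.18, 4.49, 4.90, 5.02 and 5.02, against 4.10 to 4.76 in the CMC 90d livers. Its differences were 0.16 ± 0.19 at 28 days and 0.22 ± 0.19 at 90 days. Camp, which encodes the antimicrobial cathelicidin, differed by -0.13 ± 0.13 and 0.10 ± 0.13, and Ltf, which encodes the iron-binding lactoferrin, by 0.13 ± 0.15 and 0.18 ± 0.15. Mmp8, the neutrophil collagenase, differed by 0.31 ± 0.12 at 28 days, where its 5 treated livers, between 4.05 and 4.35, lay above its 5 vehicle livers, between 3.64 and 4.05 (the nearest livers differ only beyond the second decimal). All 5 of these vehicle values were below the background of their arrays and the treated mean lay 0.12 log2 units above it, so the size of this difference is not exact. At 90 days Mmp8 differed by 0.11 ± 0.12 with overlapping groups, and 3 of 5 arrays in each group were below background. Mmp8 was tested only because the PB 28d arrays, where its mean was highest, were above background.

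Cxcr2, the receptor through which neutrophils follow chemokines out of the marrow and into tissue, differed by 0.28 ± 0.14 at 28 days (5.19 ± 0.16 in treated and 4.91 ± 0.30 in vehicle livers) and by -0.09 ± 0.14 at 90 days (4.91 ± 0.23 and 5.00 ± 0.15). Its groups overlapped at both durations, and on centring at the 75th percentile the 90-day value was 0.00.

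**Figure D2:**
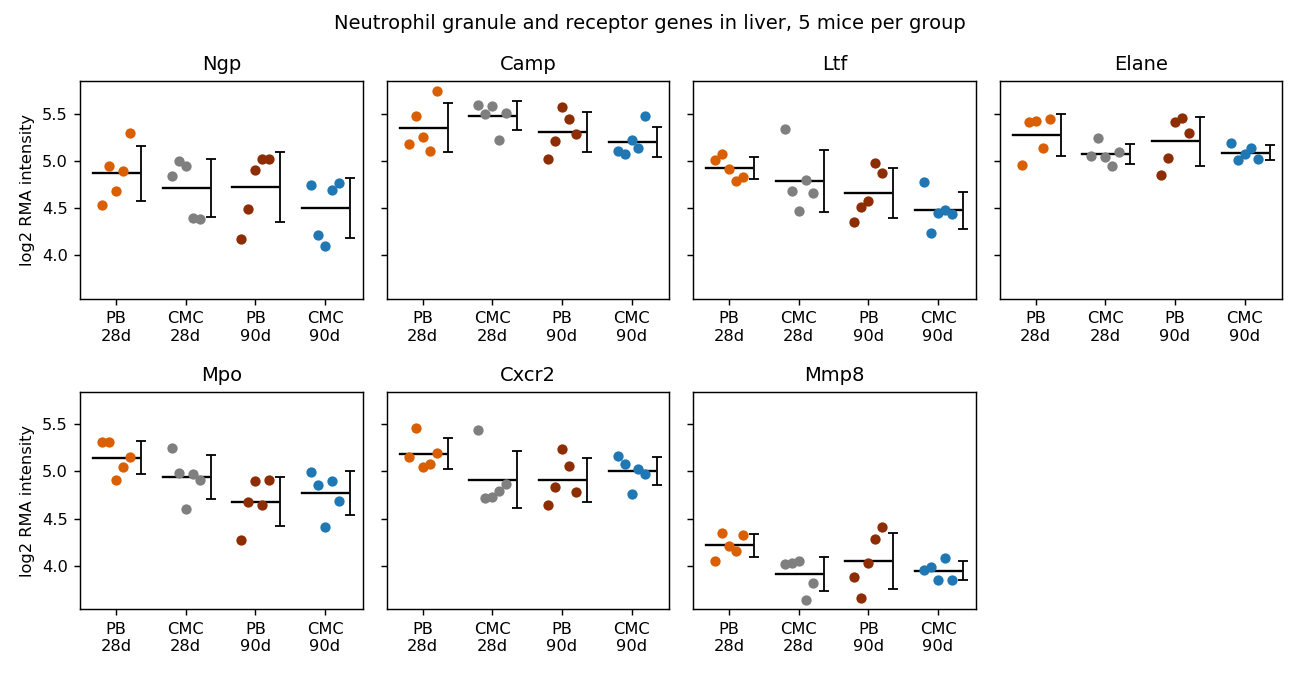
Log2 RMA intensity of Ngp, Camp, Ltf, Elane, Mpo, Cxcr2 and Mmp8 in each liver of the 4 groups. Points are mice, lines are group means and error bars are SD (n = 5). The groups overlap for each gene except Mmp8 at 28 days, whose vehicle values lie below background.

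Read over all members, S100a8 alone was called at an adjusted p under 0.05 in limma, at 90 days, and 0 members were called at 28 days, where 2 had an unadjusted p under 0.05 (2.86% of all genes did). Over all genes 0.143% were called at 90 days and 0.0498% at 28 days. Nothing is read from these counts, because the members were chosen with the comparison known. The treated and vehicle livers did not overlap for 2 of 9 members at 28 days (S100a8 and Mmp8) and for 0 of 9 at 90 days. Over all genes these shares were 0.542% and 1.07%. Nothing is read from this count either. S100a8 was chosen with its difference known, and Mmp8 passed the filter only through the PB 28d arrays. The median difference of the 9 members was 0.20 log2 units at 28 days and 0.11 at 90 days, beside -0.00 and 0.03 for all genes tested. The call of S100a8 at 90 days was lost without any of 8 single arrays, the 90-day arrays other than PB 90d replicate 5 and CMC 90d replicate 1, and 0 members were then called. It was gained at 28 days without PB 28d replicate 5 or PB 90d replicate 5, with 1 member called in each case.

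Of the 7 P450 genes followed beside S100a8, limma called 5 at 28 days and 7 at 90 days, all higher in treated livers. Over all genes 0.0498% and 0.143% were called. Cyp2b10 and Cyp2c55 had differences of the size seen for S100a8. Cyp2b10, a classic marker of activation of this receptor, differed by 4.90 ± 0.62 log2 units at 28 days and 5.88 ± 0.62 at 90 days. Cyp2b10 had further probe sets, and its values here are those of the probe set with the highest mean. That probe set is of the _s_at class, as is the one of Cyp2c65. Cyp2c55 differed by 5.35 ± 0.30 and 5.18 ± 0.30, and Cyp2b13, a P450 expressed mainly in females, by 2.54 ± 0.57 and 3.82 ± 0.57. Cyp2c65 differed by 1.76 ± 0.35 and 2.63 ± 0.35, Cyp2c37 by 2.20 ± 0.30 and 1.91 ± 0.30, Cyp2c54 by 2.05 ± 0.22 and 2.02 ± 0.22, and Cyp2c50 by 1.22 ± 0.20 and 1.0 ± 0.20. At 28 days Cyp2b13 (adjusted p = 0.248) and Cyp2c65 (adjusted p = 0.0902) did not pass. Cyp2c65 was below background on 4 of 5 vehicle arrays at each duration. It was tested only because the treated arrays were above background, and the size of its difference is not exact. The treated and vehicle livers did not overlap for any of these 7 genes at either duration, whereas S100a8 overlapped at 90 days. Over all genes 0.542% at 28 days and 1.07% at 90 days did not overlap. The list of 7 was chosen with these results known, so nothing is read from its counts.

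**Figure D3:**
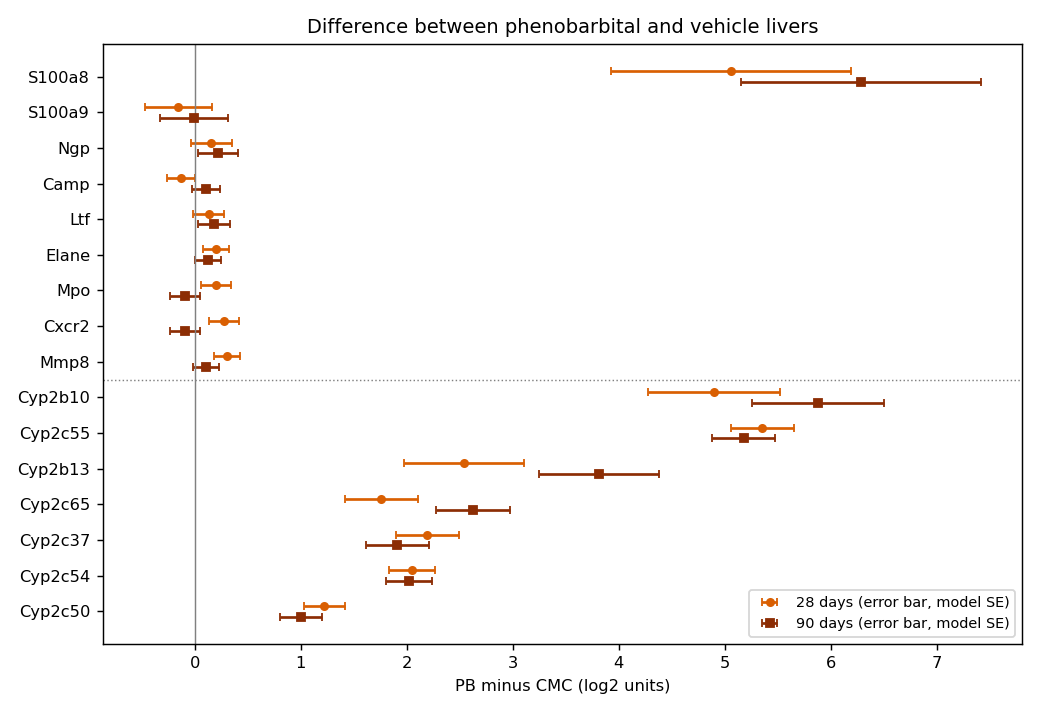
Difference between phenobarbital and vehicle livers in log2 units at 28 days (circles) and 90 days (squares) for the 9 measured members (above the dotted line) and the 7 P450 genes (below it). Error bars are the SE of the model. S100a8 lies at 5.06 and 6.28, the 8 other members between -0.15 and 0.31.

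The P450 genes were then read in the treated livers numbered 5, where S100a8 was low. PB 90d replicate 5 had the lowest S100a8 of its group, 5.42, and the highest Cyp2b10, 12.23, with Cyp2c55 at 11.99 and Cyp2b13 at 9.89. The other 4 livers of that group had Cyp2b10 between 10.54 and 11.96. Of the 7 P450 genes 3 were highest of the group in this liver (Cyp2b10, Cyp2c37 and Cyp2c50) and 1 was lowest, Cyp2c65, at 5.23 against 6.07 to 7.50 in the others. PB 28d replicate 5 had S100a8 at 7.80 and the lowest Cyp2b10 of its group, 9.03, where the other 4 lay between 10.81 and 11.68, and its Cyp2b13 of 5.91 was also the lowest. With Cyp2c37 (7.34), Cyp2c50 (12.87) and Cyp2c54 (13.32), 5 of the 7 P450 genes were lowest of the group in this liver, as S100a8 was. Its Cyp2c55 was the highest of its group at 12.07. Cyp2b10, Cyp2c55 and Cyp2b13 lay above the vehicle range of their duration in both livers. Low S100a8 thus occurred once beside high Cyp2b10 and once beside Cyp2b10 lower than in the other treated livers. PB 28d replicate 5 is also the array at the low end of the first component. Its hepatocyte marker mean was the lowest of all arrays, 12.87 against 13.85 to 13.89 in the rest of its group. The part of this in its S100a8 and P450 values was not tested.

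**Figure D4:**
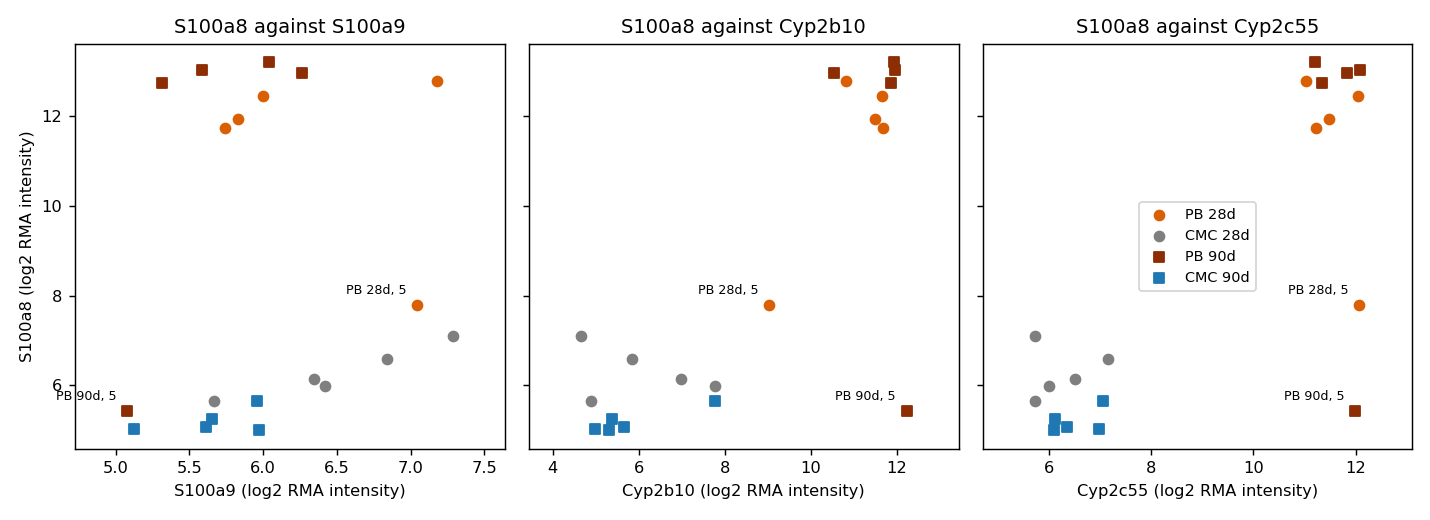
Log2 RMA intensity of S100a8 against S100a9, Cyp2b10 and Cyp2c55 in 20 livers (circles, 28 days; squares, 90 days). The treated livers numbered 5 are labelled. In PB 90d replicate 5 S100a8 is 5.42 beside 12.23 for Cyp2b10 and 11.99 for Cyp2c55.

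Whether S100a8 varied with the granule genes or with the P450 genes was examined within each treatment, on values centred on the mean of each duration, which removes the differences the members were chosen on. Exact two-sided permutation tests within durations were used, and p-values were adjusted over the 29 relations of S100a8 and S100a9 in each treatment. In the 10 vehicle livers S100a8 varied, of the 15 genes tried, most closely with S100a9 (Pearson's r = 0.86, permutation p = 0.0105, adjusted p = 0.304; Spearman's rho = 0.73, permutation p = 0.0547, adjusted p = 0.792). Without the 2 livers farthest from the median of S100a8 the r was 0.74. This relation did not pass the adjustment, and 0 of the 29 relations did.

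With the other 7 members S100a8 gave r between -0.09 and 0.20 in the vehicle livers, and with the 7 P450 genes r between -0.52 and 0.24. The smallest unadjusted permutation p among these 14 was 0.204, for Cyp2c54. Without the 2 livers farthest from the median of S100a8, r ran from -0.49 (Elane) to 0.44 (Camp) over these members. Over the P450 genes it then ran from -0.75 (Cyp2c50) to 0.72 (Cyp2c55), so these r values depend on 2 livers. In vehicle livers S100a8 therefore showed no relation that passed the test with either set of genes. The vehicle group means of these 7 members lay between -0.14 (Mmp8) and 1.42 (Camp) log2 units from background. Cyp2c65 was below background on 4 of 5 vehicle arrays at each duration. Values so near background limit what r can show, so a relation with these genes could have been missed. Ranked by r over the same 10 livers, as a measure of likeness without a test, S100a9 stood at 12 among 16053 genes. The 6 genes most like S100a8 there were Tff3 (0.97), Ier5 (0.95), Saa3 (0.90), Ddx23 (0.90), Lrfn2 (0.89) and Krt7 (0.89). Saa3 encodes a serum amyloid A protein of the acute phase, and Tff3 a trefoil peptide of epithelia.

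In the treated livers a gap of more than 2 log2 units divided the S100a8 values, so relations were examined only among the 8 livers above it. There, of the 15 genes tried, S100a8 varied most closely with S100a9 (r = 0.80, exact permutation p = 0.0174, adjusted p = 0.126; rho = 0.76, exact permutation p = 0.0451, adjusted p = 0.327, n = 8), and r was 0.52 without the 2 livers farthest from the median. With the other 7 members r lay between -0.48 and 0.49, and with the 7 P450 genes between -0.42 and -0.01. The treated group means of these 7 members lay only 0.00 to 1.26 log2 units above background, which limits what r can show. Without the 2 livers farthest from the median the r with the P450 genes ran from -0.13 (Cyp2c37) to 0.43 (Cyp2b13). Only that of Cyp2c37 was then negative, so the sign of these r values rests on 2 livers. S100a8 spanned only 11.73 to 13.21 in the 8 livers, which also limits what r can show. By Pearson's r 0 of 29 relations passed the adjustment in treated livers, and 1 of the 15 of S100a8 had an unadjusted permutation p under 0.05.

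S100a9 ran against several of the 7 P450 genes in the 10 treated livers, but showed no such relation with Cyp2c55 or Cyp2c65. Its r was -0.77 with Cyp2c37 (permutation p = 0.00424, adjusted p = 0.1; rho = -0.82, adjusted p = 0.0497), -0.77 with Cyp2b10 (permutation p = 0.0103, adjusted p = 0.1; rho = -0.88, adjusted p = 0.0497) and -0.74 with Cyp2c50 (permutation p = 0.00819, adjusted p = 0.1; rho = -0.83, adjusted p = 0.0497). These 3 passed the adjustment by rank but not by Pearson's r. Without the 2 livers farthest from the median of S100a9 the r values were -0.89, -0.74 and -0.82. In all 10 treated livers the other P450 genes gave r = -0.75 (Cyp2c54), -0.63 (Cyp2b13), -0.10 (Cyp2c55) and -0.004 (Cyp2c65). None of these passed the adjustment by r or by rank. In the same livers S100a9 had r = -0.57 with the first principal component (permutation p = 0.11), and the part of that component in these relations was not tested. In the vehicle livers the r values of S100a9 with the 7 P450 genes ran from -0.61 to 0.17, with a smallest permutation p of 0.103.

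Over all 20 livers the genes most like S100a8 by Pearson's r were Ces2a (0.86), Nebl (0.86), Cyp2c65 (0.82), Cyp2b10 (0.81), Cyp2c55 (0.80) and Cyp2c54 (0.79). Ces2a encodes a carboxylesterase and Nebl the actin-binding protein nebulette. All 6 had higher means in treated livers at both durations, by 1.22 to 5.35 log2 units at 28 days and by 1.28 to 5.88 at 90 days, and this likeness rests on the difference between treatments. The granule gene most like S100a8 over these livers was Elane (0.27, rank 1956 of 16053), and S100a9 stood at rank 6453 (0.09). Over the 10 treated livers, centred on duration, the ranking changed. The 6 most alike were then Krit1 (0.95), Paip1 (0.95), Sumf1 (0.95), Kctd9 (0.94), Brms1l (0.94) and C330007P06Rik (0.93), while S100a9 gave 0.17 (rank 5942). Of the 6 genes named over 20 livers, Nebl gave 0.52, Ces2a 0.44, Cyp2c65 0.43, Cyp2b10 0.20, Cyp2c54 0.09 and Cyp2c55 -0.46. The values of S100a8 fall into separate clusters here, so this measure mainly reads which genes were low in the livers numbered 5. Krit1, for example, had 6.12 in PB 28d replicate 5 and 5.64 in PB 90d replicate 5, against 6.59 to 6.93 in the other 8 treated livers.

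Other genes of neutrophils were examined as a list of 46, of which 37 were measured and 26 tested. At 28 days 0 of the 26 were called in limma, beside 0.0498% of all genes. At that duration 3 of the 26 and 293 of all 16054 genes were higher at an unadjusted p under 0.05. At 90 days 1 was called, beside 0.143% of all genes. The median difference of the 26 was 0.11 log2 units at 28 days and 0.07 at 90 days, beside -0.00 and 0.03 for all genes. The 1 called was Serpinb1a, an inhibitor of neutrophil elastase, which averaged 8.83 ± 0.84 in PB 90d and 5.97 ± 0.85 in CMC 90d livers (SD, n = 5; 2.86 ± 0.49, adjusted p = 0.0106). At 28 days it averaged 8.15 ± 0.48 in treated and 6.0 ± 1.14 in vehicle livers (2.15 ± 0.49, adjusted p = 0.265). Lyz2, the lysozyme of myeloid cells, differed by 0.04 ± 0.56 and 0.65 ± 0.56. The 11 genes measured but not tested had group means below the mean background, except Olfm4 in PB 90d livers. In a bulk liver sample fewer cells of a type and less RNA per cell cannot be told apart.

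The level of these markers can be set beside S100a8 liver by liver. The mean log2 intensity of the 8 members other than S100a8 lay between 4.99 and 5.38 in PB 28d and 4.90 and 5.23 in CMC 28d livers, and between 4.65 and 5.11 in PB 90d and 4.70 and 4.99 in CMC 90d livers. PB 28d replicate 5, where S100a8 was low, had 5.38, the highest of its group, but also the highest background of all arrays (4.26). Above background its mean was 1.12, against 1.16 in replicate 2 and 1.14 in replicate 3. The mean of the 26 other neutrophil genes lay between 6.29 and 6.79 in PB 28d and 6.12 and 6.45 in CMC 28d livers, and between 5.93 and 6.58 in PB 90d and 5.87 and 6.20 in CMC 90d livers. PB 28d replicate 5 had 6.79, the highest of its group, as were its lymphocyte (6.07) and S100 family (7.60) means, and PB 90d replicate 5 had 6.11. The mean of the 26 genes includes the bright Wfdc21 (group means from 13.48 to 13.81), Lyz2, and Serpinb1a, which was called at 90 days. It therefore need not follow the number of neutrophils. The mean of the 18 monocyte and macrophage markers lay between 7.34 and 7.76 in PB 28d and 6.92 and 7.81 in CMC 28d livers, and between 6.60 and 7.46 in PB 90d and 6.60 and 7.49 in CMC 90d livers. These ranges overlapped between treated and vehicle livers at both durations, and their part in the S100a8 values was not tested.

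**Figure D5:**
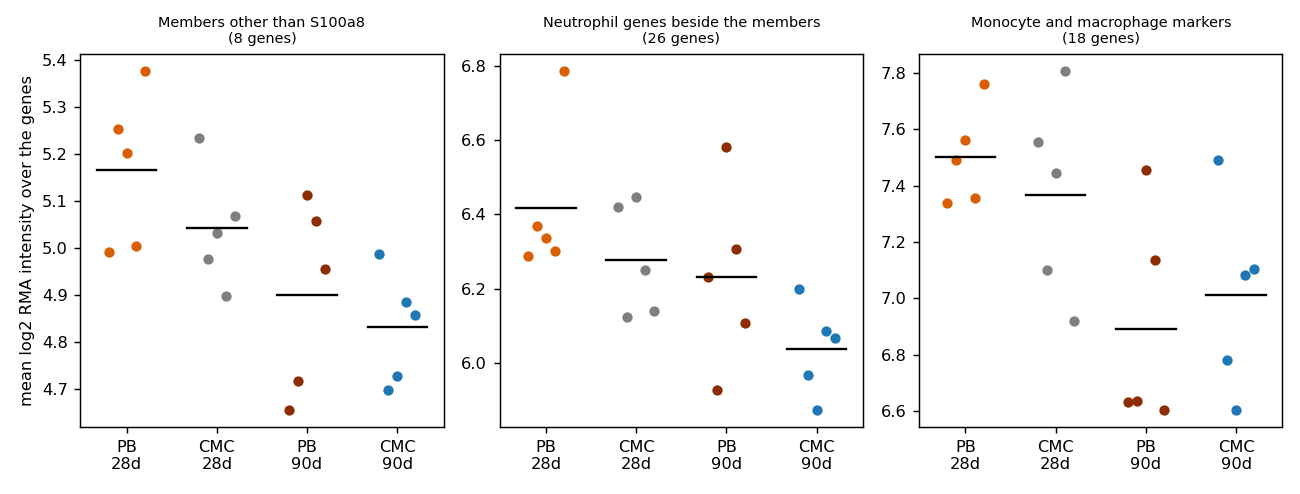
Mean log2 RMA intensity per liver over the 8 members other than S100a8 (left), the 26 other neutrophil genes (middle) and the 18 monocyte and macrophage markers (right). Points are mice and lines are group means (n = 5), and each panel has its own axis. Treated and vehicle livers overlap at both durations in each panel.

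The rest of the S100 family, a set of calcium-binding proteins to which S100a8 belongs, was listed with the binding partner gene S100pbp as 15 genes, of which 10 were tested. None was called at either duration in limma, beside 0.0498% and 0.143% of all genes. At 28 days 0 had an unadjusted p under 0.05, and at 90 days 2, beside 2.86% and 4.53% of all genes. The differences ran from -0.46 to 0.35 log2 units at 28 days and from 0.01 to 1.16 at 90 days, with medians of 0.17 and 0.31 beside -0.00 and 0.03 for all genes. The largest at 90 days belonged to S100a6, 0.34 ± 0.39 at 28 days and 1.16 ± 0.39 at 90 days (adjusted p = 0.816), and S100a13, 0.35 ± 0.36 and 0.72 ± 0.36 (adjusted p = 0.816).

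The receptors that S100A8 and S100A9 signal through, and their adaptors, formed a list of 17 with 14 tested, which includes Tlr4, Ager and Myd88. Limma called 0 of them at either duration, with 1 higher at an unadjusted p under 0.05 at 28 days and 0 at 90 days. The largest differences at 90 days were those of Rela, a subunit of NF-kappa B (-0.66 ± 0.49), and Cd36, a scavenger receptor (0.62 ± 0.50). Of 20 cytokines, transcription factors and signalling genes linked to the induction of S100a8, 16 were tested and limma called 0, with 2 at an unadjusted p under 0.05 at 28 days and 1 at 90 days. Cebpb, a C/EBP factor of hepatocytes and myeloid cells, had -0.58 ± 0.44 and -0.77 ± 0.44, and Socs3, a target and inhibitor of STAT3 signalling, had -1.55 ± 0.74 and -1.47 ± 0.74 (adjusted p = 0.816 at 90 days for both). Of 21 chemokines and adhesion molecules that draw neutrophils into tissue, 17 were tested and 0 called at either duration, with 0 and 1 at an unadjusted p under 0.05 and median differences of 0.03 and 0.07. Platelet factor 4, encoded by Pf4, gave 0.40 ± 0.25 at 90 days and Vcam1 0.30 ± 0.14. For all genes the share with an unadjusted p under 0.05 was 2.86% at 28 days and 4.53% at 90 days. The share called was 0.0498% and 0.143%.

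Further lists covered other cells that a liver sample, or blood in it, could hold, and limma called 0 of their members at either duration. Over all genes 0.0498% were called at 28 days and 0.143% at 90 days. An unadjusted p under 0.05 was found for 2.86% and 4.53% of all genes. Of 11 tested erythroid and platelet markers the median difference was 0.03 at 28 days and 0.13 at 90 days, with 0 and 1 at an unadjusted p under 0.05, and the largest 90-day values were Gp1bb (0.31 ± 0.14) and Itga2b (0.26 ± 0.17). Of 12 tested lymphocyte markers the medians were 0.14 and 0.22, with 0 at an unadjusted p under 0.05 at each duration, and Jchain gave 0.56 ± 0.30 and Gzma 0.43 ± 0.29 at 90 days. The 18 macrophage markers had medians of 0.19 and -0.07, with 0 at an unadjusted p under 0.05 at 28 days and 2 at 90 days, both lower. Marco, a macrophage scavenger receptor, gave -0.56 ± 0.21 and Cd5l -0.59 ± 0.28 at 90 days. S100a8 is also made by stressed squamous epithelium, and the 17 keratinocyte and epithelial markers tested had medians of -0.01 and 0.11, with 1 at an unadjusted p under 0.05 at each duration. Among them Lor, which encodes the cornified envelope protein loricrin, gave 0.32 ± 0.14 and 0.33 ± 0.14, and Krt8 gave -0.27 ± 0.40 and -0.32 ± 0.40. The 13 hepatocyte markers had medians of -0.07 and -0.08, with 0 at an unadjusted p under 0.05, and the largest 90-day values were Apob (-0.94 ± 0.63) and Hnf4a (-0.70 ± 0.50).

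The comparison of 90 with 28 days was not used to choose the members and was tested. Among vehicle livers S100a9 was lower at 90 days by 0.85 ± 0.32 log2 units in the mean, 5.66 ± 0.34 in CMC 90d and 6.51 ± 0.60 in CMC 28d livers (SD, n = 5 each), but this did not pass (limma adjusted p = 0.636). S100a8 had 5.19 ± 0.27 in CMC 90d and 6.29 ± 0.57 in CMC 28d livers, and the vehicle groups did not overlap, though the highest liver at 90 days and the lowest at 28 days were both at 5.64 after rounding. Its difference of -1.09 ± 1.13 did not pass (adjusted p = 0.666), with an SE that includes the spread of the treated livers. Limma called 0 of the 9 members, and 0 also in a fit of the vehicle groups alone, while 3 had an unadjusted p under 0.05: S100a9, Camp (-0.28 ± 0.13) and Ltf (-0.31 ± 0.15). Over the same comparison 17 of the 18 macrophage markers had negative differences, with a median of -0.30 and 0 called (2 at an unadjusted p under 0.05). Lyz2 gave -1.76 ± 0.56 (adjusted p = 0.636). Of all 16054 genes 8695 had negative differences, with a median of -0.03, and 587 were lower at an unadjusted p under 0.05. The part of the macrophage markers and Lyz2 in the values of the members was not tested. The share of all genes called was 0%, and 5.69% had an unadjusted p under 0.05. The groups did not overlap for 2.33% of all genes.

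Among treated livers limma called 0 of the 9 members between 90 and 28 days, beside 0.00623% of all genes, and the groups overlapped for all 9, beside 0.635% of all genes without overlap. S100a8 gave 0.13 ± 1.13 (adjusted p = 0.988), S100a9 -0.70 ± 0.32 (adjusted p = 0.971) and Mpo -0.46 ± 0.14 (adjusted p = 0.971). Those of S100a9 and Mpo had an unadjusted p under 0.05, as did 4.23% of all genes. Over the same comparison the 18 macrophage markers had negative differences without exception, with a median of -0.59 log2 units. Limma called 0 of these markers, with 8 at an unadjusted p under 0.05. Of all 16054 genes 7977 had negative differences, with a median of 0.00, and 365 were lower at an unadjusted p under 0.05. The part of these markers in the values of S100a9 and Mpo was not tested. The difference between durations in the effect of phenobarbital was 1.22 ± 1.60 for S100a8 (adjusted p = 1.0), and ran from -0.37 to 0.23 in the other members. Limma called 0 of them and 0% of all genes, and 0 members and 1.38% of all genes had an unadjusted p under 0.05.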

How the data were processed

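Liver RNA of 20 mice was hybridised to Affymetrix 3' arrays. The authors deposited log2 intensity values made with RMA, per the submitters' processing notes; no version or genome build is stated there. The table held 45037 probe sets, of which 34945 had 1 gene symbol in the platform annotation of 2016, 932 had several and 9160 none. The probe set with the highest mean stood for a gene. RMA compresses differences near background, so changes of dim genes can come out too small. Arrays give no counts, and their number limits the precision.

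A model with 1 mean per group was fitted in limma 3.58.1 (R 4.3.3) with an intensity trend and 16 residual degrees of freedom, and p-values were adjusted by Benjamini and Hochberg over 16054 genes. Relations between genes were tested by exact permutation within durations, 14400 arrangements for 10 livers and 576 for 8 (Python 3.11.15, numpy 2.4.6). The limma fit and the relation test were tested on simulated data. The genes named were the members, the 7 P450 genes, and of each other list every called gene and the 2 with the largest 90-day differences. The genes most like S100a8 in vehicle livers, Olfm4 and Wfdc21 were added after values were seen. The members, lists and P450 genes were chosen with earlier results of these data known. The alternatives were filters, probe set choices, the variance prior, array weights, other scalings, replicate blocks and removal of arrays.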

Additional observations from a re-analysis of the deposited data

Results flagged for a closer look

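In a group of 5 livers, a value was singled out when its gap to the next was large for the range of the group (Dixon's ratio above 0.71), which chance gives in about 1 of 20 groups, and 10 of 64 gene groups met this. For S100a8 these were the low livers numbered 5, 7.80 in PB 28d and 5.42 in PB 90d, against at least 11.73 and 12.76 in the others of their groups. Among the other members they were Camp in CMC 28d replicate 4 (5.22, others from 5.49 to 5.59) and Cxcr2 in CMC 28d replicate 1 (5.44, others from 4.72 to 4.87). Among P450 genes PB 28d replicate 5 was low for Cyp2c37 (7.34) and Cyp2c50 (12.87). PB 90d replicate 3 was low for Cyp2b10 (10.54) and Cyp2c54 (13.28). In vehicle livers Cyp2b10 was high in CMC 90d replicate 1 (7.76, others from 4.98 to 5.66), and Cyp2c50 was low in CMC 28d replicate 3 (11.81).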

How the results depend on the processing

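The number of members called at 28 days, 0, became 1 with array weights, without the 2 arrays at the low end of the first component and without both treated arrays numbered 5, the member being S100a8 each time. Single removals gave 0 to 1. At 90 days the 1 member called became 0 without _x_at or _s_at probe sets, which leaves S100a8 out, in a fit of only the groups compared, and with a replicate block within durations (the last, like the removals of 2 arrays, added after the data were seen); single removals gave 0 to 1. The deviations of same-numbered treated and vehicle arrays had r between -0.60 and 0.36, which does not settle whether the numbers pair the mice. With the number as a replicate block over all groups the counts were 0 and 1 as before. The counts for the difference between durations and for 90 against 28 days were 0 throughout, single removals included (0 to 0). The difference of S100a8 ran from 4.70 to 5.95 log2 units at 28 days and from 5.56 to 7.80 at 90 days. The r of S100a8 with S100a9 in vehicle livers ran from 0.75 to 0.95 on removal of single livers and did not pass the adjustment in any setting. The 0 relations called in treated livers became 4 with cyclic loess, S100a9 with Cyp2b10, Cyp2c37, Cyp2c50 and Cyp2c54, and 0 to 1 on removal of single livers (1, with Cyp2c37, without PB 28d replicate 3). The cause was not tested. Over all genes array weights called 17 instead of 8 at 28 days and a fit of only the groups compared 4, and the block within durations called 15 instead of 23 at 90 days. For treated livers at 90 against 28 days the 1 gene called became 0 in a fit of only the groups compared and 2 with array weights. The difference between durations was not run with only the groups compared. Centring on the 75th percentile shifted the median of all genes between vehicle durations by -0.12 log2 units. Probe sets near background, such as those of Mmp8, Ngp and Ltf, and of Cyp2c65 in vehicle livers, limit what can be seen of low genes.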
